A study of Mus musculus with 4 samples.

Results

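The Hox genes were described by cluster and by position in 2 mouse stromal lines that had been compared on whole-genome expression arrays. Members were the probe sets that the annotation of the array maps to 1 gene alone, where that gene's symbol is Hox, a cluster letter from a to d, and a paralogue number. The rule used no measured value and found 48 probe sets of the 45037 tested, standing for 33 genes of the 18193 with a probe set of their own. OP9M2 is a clone picked from the mouse stromal line OP9 and labelled a mesenchymal stem cell line. It was set against BFC012, a stromal line from mouse fetal liver. Each line had 2 arrays that the labels call biological replicates. Both lines had been irradiated with 2000 rad, plated at 25000 cells per cm2 and kept for 48 h before RNA was taken. The medium held 20% serum for OP9M2 but 10% for BFC012. Line and serum are therefore confounded and cannot be told apart, and each cell type was represented by 1 line only. No gene deletion, transgene or other agent is named in the labels of either group. Nothing says how far apart the cultures of 1 line were, so the p-values measure the spread between these arrays, which may be partly technical.

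Hox genes encode transcription factors with a homeodomain, a short DNA-binding fold, and lie in 4 clusters on different chromosomes, Hoxa on chromosome 6, Hoxb on chromosome 11, Hoxc on chromosome 15 and Hoxd on chromosome 2. Within a cluster, genes with low paralogue numbers are switched on earlier and nearer the head of the embryo, and genes with high numbers later and nearer the tail or the limb tip. Adult fibroblasts and stromal cells keep a Hox pattern that depends on where in the body they came from, and Polycomb and Trithorax proteins hold the silent and active states of the clusters. Hox proteins bind DNA together with cofactors of the TALE class (Pbx, Meis and Pknox).

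The promoters of 5 Hox genes are given because Hoxa5 and Hoxa7 stand on either side of the place in the Hoxa cluster where calls began, and because Hoxa9, Hoxa11 and Hoxb4 were called and are in the RefSeq promoter table (GRCm38.p6). They were picked after the values had been seen, Hoxb9 and Hoxc13 are named only, and Hoxa10, also called, has 2 windows, with 7 and 20 CpGs, that are not printed. Each run is the 250 bases before the start of the gene, 5′ to 3′ on the strand of the gene, with each CpG (a C followed by a G, the dinucleotide that can be methylated) in capitals. The window of Hoxa5, which was not called, is chr6:52204588-52204837 on the minus strand. Hoxa7, Hoxa9 and Hoxa11, called lower in OP9M2, have the windows chr6:52218574-52218823, chr6:52227371-52227620 and chr6:52245811-52246060, all on the minus strand. Hoxb4, also called lower, has the window chr11:96318017-96318266 on the plus strand.
Hoxa5: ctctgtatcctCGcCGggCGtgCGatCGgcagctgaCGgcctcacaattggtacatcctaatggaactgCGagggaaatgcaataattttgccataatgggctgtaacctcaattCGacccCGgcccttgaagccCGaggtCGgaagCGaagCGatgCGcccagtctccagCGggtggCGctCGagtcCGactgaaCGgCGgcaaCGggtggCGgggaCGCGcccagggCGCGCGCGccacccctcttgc
Hoxa7: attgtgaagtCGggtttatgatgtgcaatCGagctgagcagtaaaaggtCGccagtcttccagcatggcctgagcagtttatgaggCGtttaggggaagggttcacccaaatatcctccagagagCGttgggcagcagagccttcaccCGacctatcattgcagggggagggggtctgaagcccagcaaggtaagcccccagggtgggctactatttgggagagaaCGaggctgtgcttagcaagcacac
Hoxa9: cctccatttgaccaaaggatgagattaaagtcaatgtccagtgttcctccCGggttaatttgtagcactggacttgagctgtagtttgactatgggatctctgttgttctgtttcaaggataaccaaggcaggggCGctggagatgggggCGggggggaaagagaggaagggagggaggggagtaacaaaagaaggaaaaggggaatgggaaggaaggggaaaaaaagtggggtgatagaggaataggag
Hoxa11: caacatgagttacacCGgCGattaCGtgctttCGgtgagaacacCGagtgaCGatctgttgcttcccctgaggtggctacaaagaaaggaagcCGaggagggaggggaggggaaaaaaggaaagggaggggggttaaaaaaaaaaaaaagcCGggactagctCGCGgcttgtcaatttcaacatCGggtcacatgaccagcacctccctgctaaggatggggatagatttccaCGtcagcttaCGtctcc
Hoxb4: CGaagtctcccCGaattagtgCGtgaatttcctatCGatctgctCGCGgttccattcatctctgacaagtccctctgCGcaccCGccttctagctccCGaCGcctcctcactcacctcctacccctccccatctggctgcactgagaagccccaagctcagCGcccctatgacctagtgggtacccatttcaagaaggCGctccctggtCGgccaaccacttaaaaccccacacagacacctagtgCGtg
CpG counts in these windows were 28 for Hoxa5, 7 for Hoxa7, 3 for Hoxa9, 13 for Hoxa11 and 14 for Hoxb4, against a median of 6 over all 32851 promoters of the table. The called genes therefore stood on both sides of that median, and the uncalled Hoxa5 held more CpGs than 92.4% of all promoters. Over the 24 windows of the 22 Hox genes in the table, the median was 12.5 CpGs and the range 2 (Hoxd11) to 35 (Hoxa13), both of them uncalled genes. The letters TTTATG, searched on both strands, occurred in 5 of the 24 Hox windows, that of Hoxa7 among them, and in 10.8% of all promoters. TGATNNAT, a pattern bound by Pbx with Hox proteins, occurred in 4 Hox windows and in 7.68% of all promoters, and TGACAG, the Meis and Pknox core, in 2 Hox windows and in 15.9% of all promoters. Matches of different patterns may share bases, and a match describes the letters of a window and shows no binding.

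Values are given on the log2 scale of RMA, the standard summary of this array, taken as the natural log of the deposited number, since the sources do not state the base the numbers were raised from. Taking log2 of the deposited numbers instead would make every difference 1.44 times as large and leave the p-values as they are. It could lose no call, and it called the same 11 Hox genes. A level of 6.10, the 95th percentile of 79 probe sets for odorant, trace amine and vomeronasal receptors, was used as the background. Between 49.5% and 50.2% of probe sets lay above it on each array. The whole profiles of the OP9M2 arrays correlated at r = 0.980, those of the BFC012 arrays at r = 0.994, and arrays of different lines at 0.941 to 0.954. The OP9M2 arrays were at least 1 log2 unit apart at 2842 probe sets, and the BFC012 arrays at 291. The spiked poly-A controls averaged 3.94 on OP9M2 replicate 2, against 5.74 to 7.0 on the other 3 arrays. Of 13 mesenchymal markers, 11 lay above background on both OP9M2 arrays and 10 on both BFC012 arrays, while Thy1 lay below it on all 4. The collagen chain Col1a2, a defining product of fibroblasts, was near background in BFC012, at 6.18 and 6.07, and 8.07 log2 units higher in OP9M2. Of the other mesenchymal markers only Eng was called, 1.88 log2 units higher in BFC012. Uncalled at 2-fold or more were Pdgfra (3.37, limma adjusted p = 0.0513) and Pdgfrb (2.18, limma adjusted p = 0.109), higher in OP9M2. Nt5e (-1.68, limma adjusted p = 0.176) and Vcam1 (-1.28, limma adjusted p = 0.207) were lower. The collagen gene Col1a1 was far above background in both lines, at 12.78 and 12.14 in OP9M2 and 13.06 and 13.12 in BFC012. Above background on both arrays of OP9M2 and of BFC012 were 1 and 2 of 6 macrophage markers, 2 and 2 of 5 hepatocyte markers (Ttr and Apoa2) and 1 and 1 of 6 endothelial markers (Kdr). The albumin gene Alb, the leukocyte antigen Ptprc and the endothelial Pecam1 and Cdh5 lay below it on all 4 arrays. Of 6 mesothelial markers, the genes of the cells that line the body cavities, 5 were lower in OP9M2, 4 of them below background on both OP9M2 arrays. The other, Msln, read 6.56 and 10.00 in OP9M2 and 10.19 and 10.48 in BFC012 and was not called (limma adjusted p = 0.443). The summed intensity of the list was 303 and 1236 in OP9M2 against 8841 and 10312 in BFC012. Of 6 epithelial markers, Cdh1 and Krt7 were lower in OP9M2, and Epcam, at 10.32 and 9.20 against 8.73 and 8.90, was not called. On both arrays of a line, 1 of the 6 lay above background in OP9M2 (Epcam) and 4 in BFC012. The sums over the list were 1432 and 775 in OP9M2 against 951 and 1138 in BFC012.

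Every Hox gene that was called was lower in OP9M2 than in BFC012. Of the 33 genes, 11 were called lower, 0 higher and 22 neither, where a call needed a difference of 2-fold or more and an adjusted p at or under 0.05 (limma, Benjamini-Hochberg over all 45037 probe sets). Over all 18193 genes, 3.56% were called lower, 2.36% higher and 5.91% in either direction, so that the share of 33.3% among the Hox genes stood above the background of lower calls. Of the 48 Hox probe sets, 13 were called lower (27.1%) and 0 higher, where 2.66% of all probe sets were lower and 1.8% higher. At an unadjusted p under 0.05 in limma, 2 Hox genes were higher in OP9M2 and 13 lower, where 10.5% of all genes were higher and 12.8% lower. No filter on low values was set, so all 33 genes were tested. The median difference over the 33 genes was -0.04 and that over all genes 0.03, since most Hox genes lay near 0 or at background in both lines. In cultures measured in bulk, fewer cells that express a gene and less RNA per cell cannot be told apart. Of the 6 mesothelial markers, 5 were called in the direction of the called Hox genes, and their part in the Hox result was not tested.

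The clusters differed in how many of their genes were called. In Hoxb, 6 of 9 measured genes were lower, with a median difference of -2.02, and in Hoxa 4 of 9, with a median of -0.52. In Hoxc, 1 of 7 was lower (median -0.07), and in Hoxd 0 of 8 (median 0.04). By position, 0 of 2 genes of paralogue number 1, 5 of 13 of numbers 2 to 6, 5 of 13 of numbers 7 to 11 and 1 of 5 of numbers 12 and 13 were called. Genes above background on no array, none of them called, numbered 2, 2, 6 and 4 in these position groups, in that order. By cluster they numbered 1 in Hoxa, 3 in Hoxb, 3 in Hoxc and 7 in Hoxd. The shares called therefore rest on unlike numbers of detected genes. The counts by cluster and by position are a description of 33 genes that share 4 arrays and were not tested against each other. Without BFC012 replicate 1 the number of Hox genes called fell to 0, and likewise without BFC012 replicate 2, with the remaining array assumed to vary like the OP9M2 pair. Then 11 Hox genes were lower and 0 higher at an unadjusted p under 0.05 in limma in each case, where 7.34% and 6.77% of all genes were lower at that level. The smallest adjusted p of any gene was 0.0826 without replicate 1 and 0.0903 without replicate 2. When either OP9M2 array was left out the same 11 genes were called, OP9M2 replicate 2 with its low spike controls included.

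**Figure D1:**
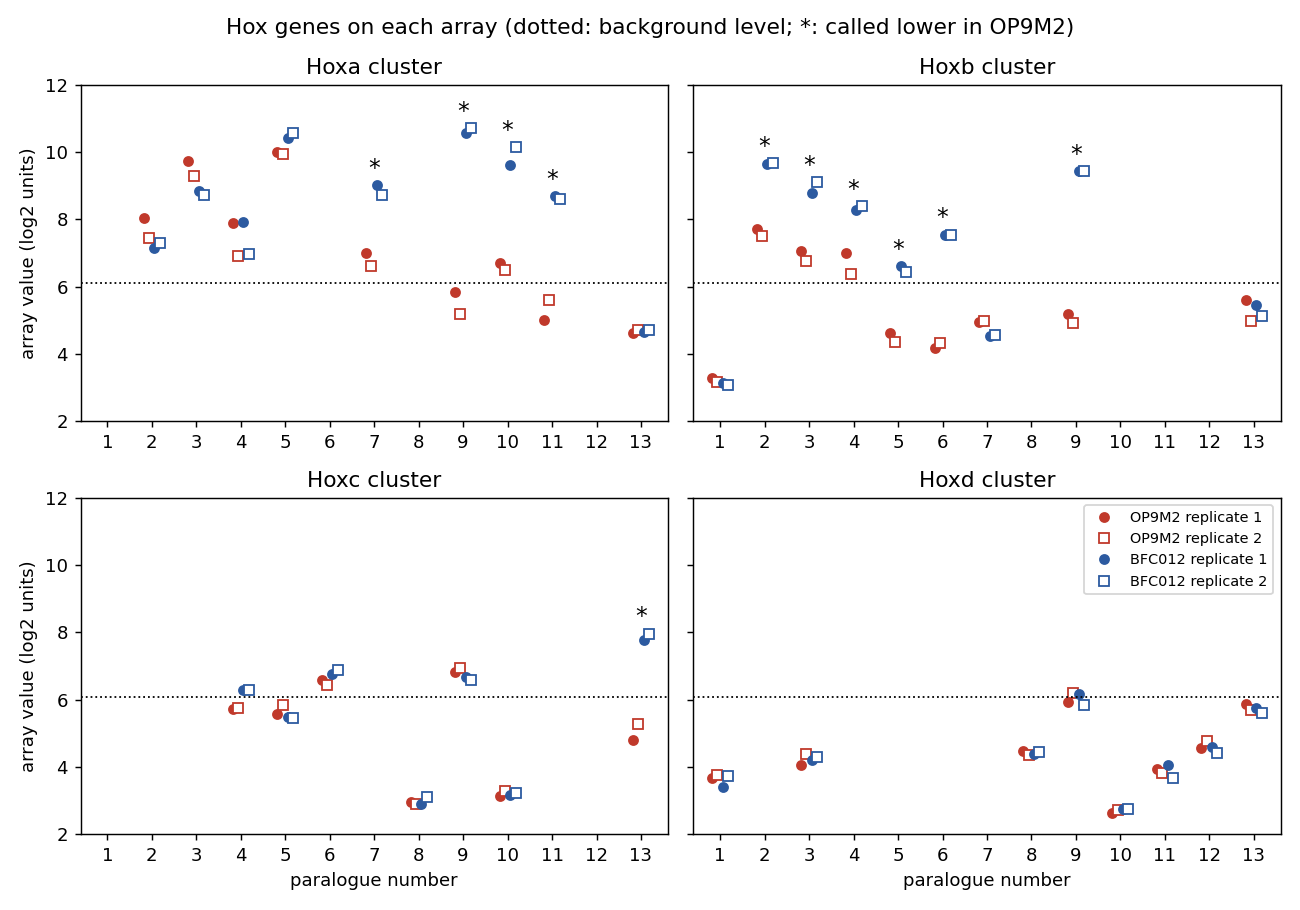
RMA log2 level (vertical axis) of each measured Hox gene on the 4 arrays, by paralogue number (horizontal axis) in 1 panel per cluster, with a point per array (red for OP9M2, blue for BFC012, filled for replicate 1 and open for replicate 2), a dotted line at the background level of 6.10 and a star over genes called lower in OP9M2. Numbers without points had no probe set of their own. The stars stand over 4 genes from Hoxa7 to Hoxa11, over 6 from Hoxb2 to Hoxb9 and over Hoxc13, and no Hoxd gene has one.

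In the Hoxa cluster, the 4 measured genes from Hoxa7 to Hoxa11 were lower in OP9M2, and none of the 4 from Hoxa2 to Hoxa5 was called. Hoxa9, a regulator of blood stem cells that is often active in leukaemia, stood at 5.84 and 5.19 on the OP9M2 arrays and at 10.58 and 10.71 on the BFC012 arrays (probe set 1455626_at). Both OP9M2 values lay below background, and the arrays of the lines were far apart. The difference was -5.13 ± 0.25 (SE, n = 2 arrays per line, limma adjusted p = 0.00284), or at least 23.4-fold when the OP9M2 level is set at the background. Hoxa11, needed for the uterus, the kidney and the forearm, read 5.01 and 5.60 in OP9M2 and 8.70 and 8.61 in BFC012 (1420414_at), again with OP9M2 below background. Its difference was -3.35 ± 0.24 (limma adjusted p = 0.00638), at least 5.89-fold.

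Hoxa10, which acts in the uterus and the lumbar spine, read 6.71 and 6.49 in OP9M2 and 9.61 and 10.16 in BFC012 (1431475_a_at). It was above background in both lines and 9.71-fold lower in OP9M2 (-3.28 ± 0.24, limma adjusted p = 0.00664). Hoxa7, which helps pattern the thoracic spine, read 6.99 and 6.63 against 9.02 and 8.74 (1449499_at). The OP9M2 arrays lay below both BFC012 arrays and above background, and the difference was 4.20-fold (-2.07 ± 0.20, limma adjusted p = 0.0136). Hoxa13, the gene of digits and genital tract at the end of the cluster, lay at 4.62 to 4.72 on all arrays and was not above background in either line.

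The genes at the other end of Hoxa gave small differences of either sign. Hoxa3, needed for the thymus and parathyroid, read 9.74 and 9.28 in OP9M2 and 8.86 and 8.72 in BFC012. Both OP9M2 arrays were above both BFC012 arrays, yet the difference of 0.72 ± 0.21 was not called (limma adjusted p = 0.161), and the probe set is of a kind that can match more than 1 transcript. Hoxa2, which patterns the hindbrain and the second branchial arch, read 8.05 and 7.45 against 7.16 and 7.31 (0.51 ± 0.24, limma adjusted p = 0.359). Hoxa5, needed for the lung and the neck and upper thoracic spine, read 10.01 and 9.94 against 10.41 and 10.58, so its difference pointed the other way without a call (-0.52 ± 0.14, limma adjusted p = 0.147). Hoxa4 read 7.90 and 6.91 against 7.92 and 6.99, and its replicate gaps of 0.99 and 0.94 were the widest of any Hox gene. The median gap between replicates over the Hox genes was 0.22 in OP9M2 and 0.13 in BFC012, against 0.24 and 0.15 over all genes.

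In the Hoxb cluster, every gene from Hoxb2 to Hoxb9 with a probe set of its own was called lower in OP9M2 except Hoxb7. The widest difference was that of Hoxb9, which shapes the ribs with its paralogues and read 5.20 and 4.91 in OP9M2 and 9.43 and 9.44 in BFC012 (1452317_at). OP9M2 lay below background on both arrays and the BFC012 arrays differed by little, giving -4.38 ± 0.16 (limma adjusted p = 0.00166), at least 10.1-fold. Hoxb6 read 4.16 and 4.32 against 7.55 and 7.55 (1451660_a_at), a difference of -3.30 ± 0.14 (limma adjusted p = 0.00197). It too was below background in OP9M2, which makes the fold at least 2.74. Hoxb5, active in the lung and the gut's nerve cells, read 4.63 and 4.36 against 6.62 and 6.43 (1418415_at), at least 1.34-fold (-2.02 ± 0.17, limma adjusted p = 0.00960). Its BFC012 values were close to background, so the bound is small although the measured gap was not.

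Hoxb2, Hoxb3 and Hoxb4 were lower in OP9M2 but above background in both lines. Hoxb2, which helps set up the hindbrain, read 7.71 and 7.49 in OP9M2 and 9.64 and 9.68 in BFC012 (1449397_at), 4.18-fold lower (-2.06 ± 0.15, limma adjusted p = 0.00658). Hoxb3 read 7.05 and 6.76 against 8.79 and 9.12 (1456229_at), 4.14-fold lower (-2.05 ± 0.20, limma adjusted p = 0.0134). Hoxb4, known for expanding blood stem cells when overexpressed, read 7.0 and 6.38 against 8.29 and 8.40 (1460379_at). Its difference was -1.66 ± 0.25, or 3.16-fold, and its adjusted p the highest of the 11 (limma, 0.0411). Hoxb1, the hindbrain gene at the start of the cluster, and Hoxb13, a prostate and tail gene at its end, were above background on no array and differed by 0.11 and 0.01.

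Hoxb7 and Hoxb8 could not be read separately. The probe set that names Hoxb7 alone lay below background on all arrays (4.95 and 4.99 in OP9M2, 4.54 and 4.55 in BFC012) and was not called. Another probe set, which names both Hoxb8 and Hoxb7 and so is no member, read 4.27 and 4.06 in OP9M2 and 8.16 and 8.17 in BFC012. It was lower in OP9M2 by at least 4.20-fold (-4.00 ± 0.15, limma adjusted p = 0.00165), and which of the genes it reports cannot be told from the array.

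In the Hoxc cluster, Hoxc13 was called alone. This gene of hair and nail formation read 4.79 and 5.28 in OP9M2 and 7.77 and 7.97 in BFC012 (1425874_at), so OP9M2 was below background and BFC012 above. The difference was -2.83 ± 0.22 (limma adjusted p = 0.00784), at least 3.41-fold. Hoxc4 had the same order on a smaller scale, 5.72 and 5.76 against 6.30 and 6.28, with a difference of -0.55 ± 0.13 that was not called (limma adjusted p = 0.108). Hoxc6 and Hoxc9, genes of the thoracic region, were above background in both lines and not called, at -0.31 ± 0.14 and 0.26 ± 0.14. The dimmer probe sets of Hoxc6 gave -0.17, above background on 1 array of each line, and 0.07, above it on no array. Neither was called. Hoxc5, Hoxc8 and Hoxc10 were not above background on either line's arrays.

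In the Hoxd cluster, whose last genes build digits and genitals, no gene was called by limma and 0 of 8 passed an unadjusted p under 0.05. The differences ran from -0.08 to 0.16, and the smallest adjusted p was 0.685. Of the 8 genes, 7 lay above background on no array, so for them the array gives a bound rather than a comparison. Hoxd9 read 5.94 and 6.20 in OP9M2 and 6.16 and 5.86 in BFC012, above background on 1 array of each line, with overlapping values. Hoxd4 shared both of its probe sets with Hoxd3, and these were below background too. No probe set was assigned to Hoxa6, Hoxc11 or Hoxc12, which are not analysed here.

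**Figure D2:**
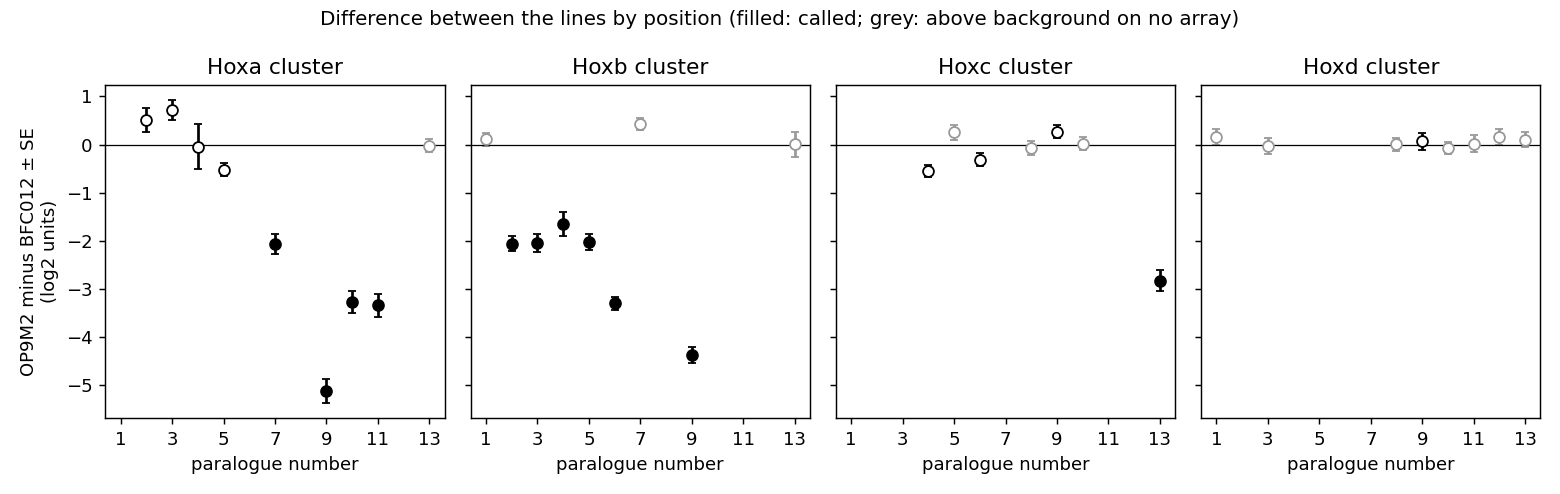
Difference of RMA log2 levels, OP9M2 minus BFC012 (vertical axis), for the 33 Hox genes by paralogue number in 1 panel per cluster, with bars of 1 SE, filled points for genes called by limma and grey points for genes above background on no array. The 11 filled points lie between -5.13 and -1.66, and the open points between -0.55 and 0.72.

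Judged by the probe set that stood for each gene, no Hox gene lay between the called and the uncalled ones. The 11 called genes ran from -5.13 to -1.66, and the 22 others from -0.55 to 0.72. Above background on both arrays were 11 Hox genes in OP9M2 and 18 in BFC012. All 11 of OP9M2 were among the 18, a further 7 were above background on both BFC012 arrays and on no OP9M2 array, 14 were above it on no array, and Hoxd9 was above it on 1 array of each line. The 11 called genes were all above background on both BFC012 arrays, 6 of them on no OP9M2 array and 5 on both. Both OP9M2 arrays lay below both BFC012 arrays for 15 of the 33 genes, against 24.8% of all genes, and above them for 6, against 28.4% of all genes.

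Where a called gene had several probe sets, these had the same sign and different sizes. The other probe set of Hoxa9 (1421579_at) read 6.76 and 7.05 in OP9M2 and 8.37 and 8.43 in BFC012, a difference of -1.50 ± 0.16 that was called (limma adjusted p = 0.0184). It lay above background in OP9M2, where 1455626_at did not, so whether OP9M2 holds some Hoxa9 transcript depends on the probe set. The second of Hoxb4 was called too, at -2.04 ± 0.25 (limma adjusted p = 0.0252). The second of Hoxb3 was not, at -0.87 ± 0.16 (limma adjusted p = 0.0673), and the second of Hoxa10 was not above background on any array. The 4 of Hoxa3 gave 0.72, 0.38, 0.33 and -0.34, the last of them below background, and none was called. The antisense transcript Hoxa11os read 5.26 and 5.47 in OP9M2 and 6.58 and 7.95 in BFC012 and was not called (-1.90 ± 0.48, limma adjusted p = 0.126), its BFC012 arrays being 1.37 apart.

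**Figure D3:**
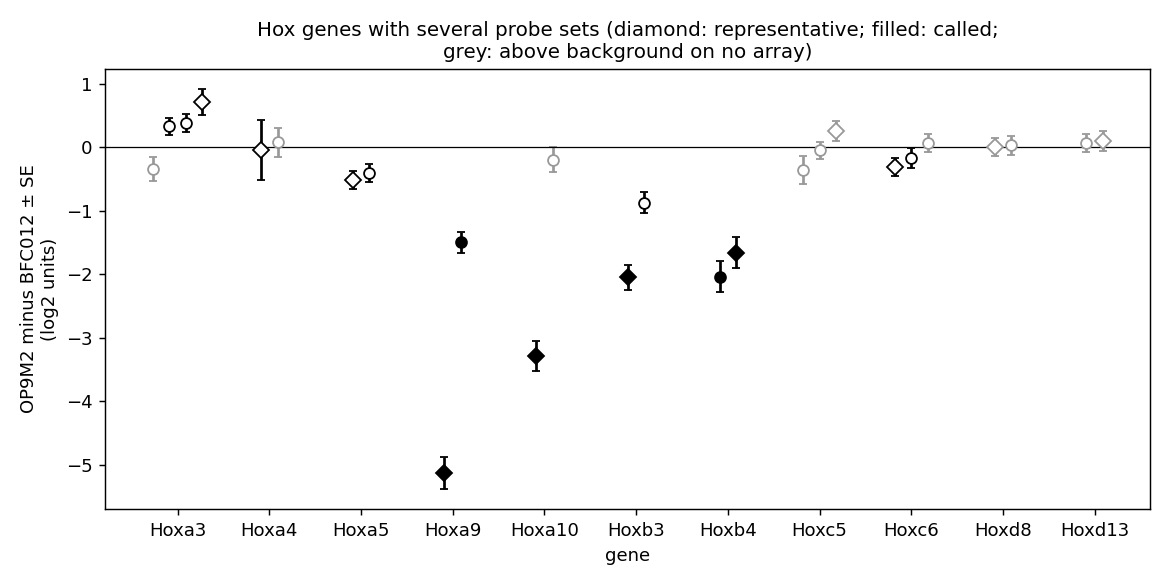
Difference of RMA log2 levels, OP9M2 minus BFC012, with bars of 1 SE, for each probe set of the Hox genes that have more than 1 (diamonds for the one that stands for the gene, filled where called, grey where above background on no array). The Hoxa9 probe sets lie at -5.13 and -1.50, those of Hoxb4 at -1.66 and -2.04, and those of Hoxa3 on both sides of 0.

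The TALE cofactors, with which Hox proteins bind DNA, moved in both directions. Of 9 listed genes 8 were measured, and 1 was higher and 2 lower in OP9M2, with a median difference of 0.26. The shares called over all genes were 2.36% higher and 3.56% lower. Meis2 read 11.71 and 11.36 in OP9M2 and 10.01 and 10.00 in BFC012, 2.89-fold higher (1.53 ± 0.17, limma adjusted p = 0.0203). Pbx3 read 9.54 and 8.92 against 10.89 and 11.35, 3.71-fold lower (-1.89 ± 0.29, limma adjusted p = 0.0438). Pbx4 read 5.59 and 5.59 against 7.17 and 7.45, below background in OP9M2 and at least 2.32-fold lower (-1.72 ± 0.16, limma adjusted p = 0.0124). The second probe sets of Pbx3 (-1.69 ± 0.30, limma adjusted p = 0.0581) and Pbx4 (-0.95 ± 0.21, limma adjusted p = 0.0961) were not called, and of the 4 of Meis2, at 1.53 to 1.68, 3 were called. The 5 others, Meis1, Meis3, Pbx2, Pknox1 and Pknox2, were above background on all arrays and not called. Meis1, a partner of Hoxa9 in leukaemia, read 9.10 and 9.23 against 7.79 and 8.37 (1.08 ± 0.23, limma adjusted p = 0.0927).

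The genes of the proteins that hold Hox clusters silent or active gave no call at the RNA level. Of 30 Polycomb genes 28 were measured, and limma called 0, with 13 at an unadjusted p under 0.05 (4 higher and 9 lower) and a median difference of -0.04. Over all genes, 23.3% passed that level in either direction, so 13 of 28 was a larger share, and this excess was not tested. As 5.91% of all genes were called, few calls were to be expected in lists this small. The Polycomb differences ran from -1.12 (Pcgf5) to 1.47 (Ezh1). Uncalled at 2-fold or more were Ezh1 (limma adjusted p = 0.0793) and Phc3 (1.01, limma adjusted p = 0.0617), which were higher in OP9M2. Pcgf5 was lower (limma adjusted p = 0.418). Of 14 Trithorax genes 13 were measured, with 0 called, 3 at an unadjusted p under 0.05 and a median of -0.17. Of 12 regulators known to act upstream of Hox genes 10 were measured, with 0 called by limma and 0 at an unadjusted p under 0.05. Among these, Cdx1 and Cdx4, tail-end activators of Hox genes, were below background on all arrays, and Cdx2 lay at it, with 6.31 and 6.20 in OP9M2 and 6.14 and 6.05 in BFC012. Egr2, which drives Hox genes in the hindbrain, read 9.51 and 5.39 in OP9M2 and 8.58 and 8.26 in BFC012, so its replicates in OP9M2 were further apart than the lines.

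Homeobox genes outside the clusters changed in both directions. Of 31 listed genes 29 were measured, with 3 higher and 2 lower in OP9M2, where 2.36% of all genes were called higher and 3.56% lower. Dlx5, a bone and jaw regulator, read 8.55 and 8.63 in OP9M2 and 4.96 and 4.25 in BFC012, at least 5.62-fold higher (3.98 ± 0.27, limma adjusted p = 0.00570). Lhx2, which acts in hepatic stellate cells, the eye and the brain, read 3.54 and 3.75 against 7.96 and 8.03, at least 3.73-fold lower (-4.35 ± 0.15, limma adjusted p = 0.00150). Dlx4 was higher (2.38 ± 0.33, limma adjusted p = 0.0340), Dlx6 higher but above background in neither line (1.55 ± 0.17, limma adjusted p = 0.0186), and Dlx2 lower (-1.81 ± 0.22, limma adjusted p = 0.0242).

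Genes that lie beside the Hox clusters were not called. Of 24 neighbours in the RefSeq order 22 were measured, with 0 called by limma, 2 at an unadjusted p under 0.05 and differences from -0.83 (Snx10) to 0.59 (Calcoco1). Their median was 0.02. Of all genes, 5.91% were called and 23.3% passed that unadjusted level in either direction, so few calls were to be expected among 22 genes. The neighbours include Skap2 and Evx1 beside Hoxa, Skap1 and Ttll6 beside Hoxb, Calcoco1 and Smug1 beside Hoxc, and Mtx2 and Evx2 beside Hoxd.

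**Figure D4:**
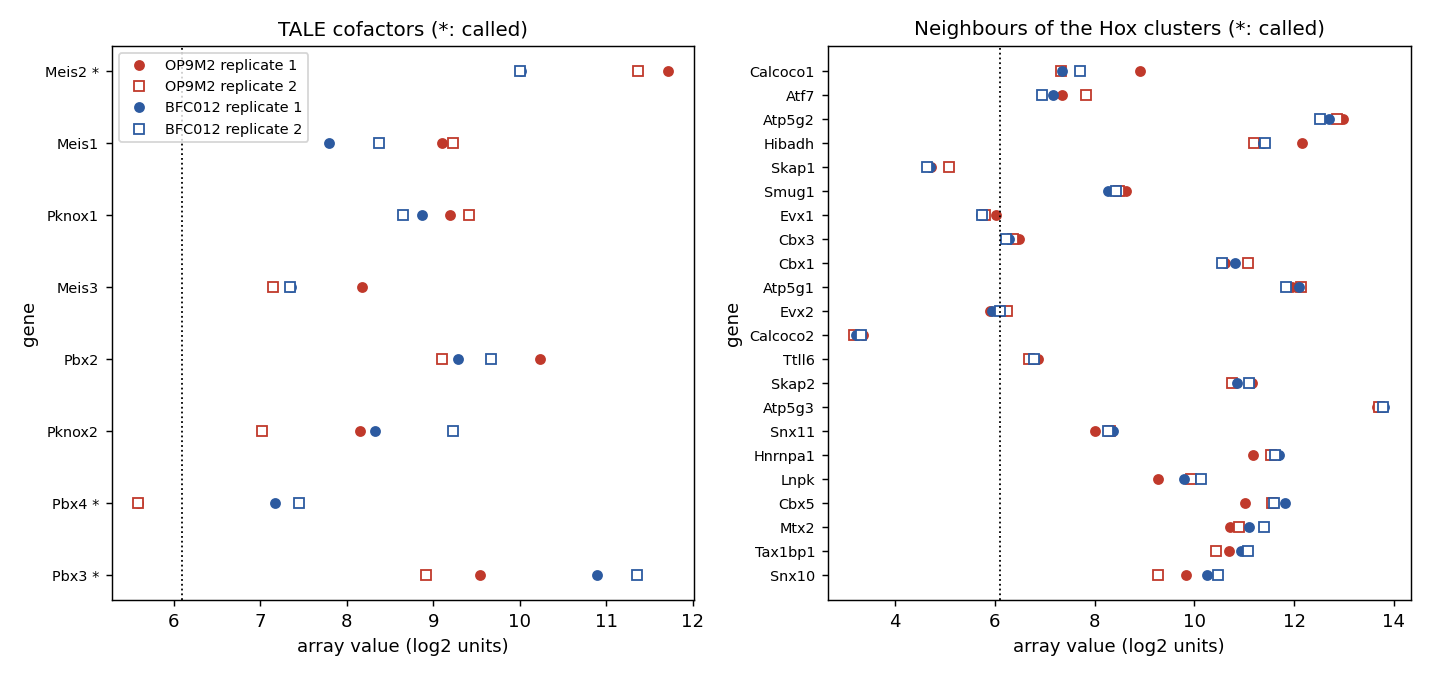
RMA log2 level (horizontal axis) of each measured TALE cofactor (left) and each measured gene beside a Hox cluster (right) on the 4 arrays, ordered by the difference between the lines, with a dotted line at the background level of 6.10 and a star at called genes. Meis2 is higher in OP9M2 and Pbx3 and Pbx4 are lower, and no neighbour is starred; where points coincide, as for Pbx4 in OP9M2, the later one covers the other.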

How the data were processed

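RNA of 4 cultures had been hybridised to whole-genome mouse expression arrays, and the deposited values are normalized intensities that the authors made with RMA in the affy package, per the processing notes. They are on a linear scale, and their natural log has the range of RMA log2 values, so it was used as such. Each of the 45037 probe sets that are not controls was tested for OP9M2 against BFC012 with limma 3.58.1 (lmFit and eBayes, R 4.3.3), with Benjamini-Hochberg adjustment over all of them, and the fit was tested on simulated data. A call needed an adjusted p at or under 0.05 and a 2-fold difference.

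Genes were named through the platform annotation (34945 probe sets with 1 gene, 932 with several, 9160 with none), and a gene was represented by its brightest probe set, by the mean of the 4 arrays. Where a line was above background on none of its arrays, the fold was computed against the higher, per array, of the background and the measured value. All measured Hox genes were accounted for; those called are given on every array, and of the others those above background in a line or with probe sets that disagree are named; of the other lists the called genes are named, and further names there were chosen after their values were seen. The members and gene lists were chosen with earlier results of these data known. Other per-array columns were not present, and the number of arrays limits the precision.

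The alternatives were log2 of the deposited value, a trend in eBayes, a filter on dim probe sets, quantile normalization again, median centring, the mean of a gene's probe sets, no fold threshold, 2 other background percentiles, the replicate number as a block, and leaving out each array.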

Additional observations from a re-analysis of the deposited data

How the results depend on the processing

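The 11 Hox genes called lower were the same 11 under log2 of the deposited value, the trend, the dim-probe filter (19 Hox genes tested), quantile normalization, median centring, the mean of probe sets and no fold threshold. Log2 of the deposited value and no fold threshold keep the p-values and only loosen the fold rule, so neither could lose a call. Of the 11, 6 passed the dim-probe filter through the arrays of BFC012 alone, the line where they were high. Leaving out each array in turn gave 0 to 11 Hox genes and 0 to 14 Hox probe sets called lower, and none higher. The direction of the 11 held in all of these. The replicate number did not pair the arrays: deviations of same-numbered arrays correlated at -0.103. With the replicate block, 9 Hox genes were called, Hoxb3 (adjusted p = 0.0782) and Hoxb4 (adjusted p = 0.122) being lost in limma. With the crossed pairing, chosen after seeing the data, 10 were called and Hoxb4 was lost. The replicate block left 0 TALE cofactors and 2 other homeobox genes (Lhx2 and Dlx5). Leaving out arrays gave 0 to 3 TALE cofactors, 0 to 5 Polycomb genes, 0 to 2 upstream regulators, 0 to 9 other homeobox genes and 0 to 1 neighbours of the clusters. Quantile normalization again called 1 Polycomb gene, Phc3. The uncalled difference of Hoxa4 changed sign, to 0.019 with the mean of probe sets, and ran from -0.54 to 0.45 when arrays were left out (0.45 without OP9M2 replicate 2 and 0.42 without BFC012 replicate 1). With the background at the 99th percentile, 5 Hox genes in OP9M2 and 14 in BFC012 lay above it on both arrays, and at the 90th, 12 and 19. The causes were not tested. Signal near background limits the Hoxd genes and the folds of the genes below it in OP9M2.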
